A study of Mus musculus with 12 samples.

Results

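Osteoblasts sorted from bone were set against an osteoblastic cell line. The sorted cells were 7AAD-Lin-CD45-ECFP+ cells of vehicle-treated mice (3 libraries), and the line was mock MC3T3-E1 (3 libraries), so 6 of the 12 libraries of the series entered the comparison. Expression is in FPKM, reads scaled to transcript length and library size. A gene name was kept when both expression tables held it and any of these libraries reached an FPKM of 1, which gave 12359 of 21733 shared names. Col1a1 and Col1a2, the chains of type I collagen, were left out, because both were listed at 0 in 1 vehicle library and at 24170 FPKM or more in the other 2.

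The sorted cells came from female Col2.3-ECFP mice, in which a type I collagen promoter drives enhanced cyan fluorescent protein in mature osteoblasts. The mice were 12 weeks old when injections began and received PBS, 5 days a week for 3 weeks. Their calvaria and limb and hip bones were digested with collagenase and EDTA, and live cells negative for lineage markers and CD45 and positive for ECFP were sorted 24 h after the last injection. MC3T3-E1 is a clonal line from mouse calvaria that is widely used as a model of the preosteoblast. The mock cells carried an empty pMX-IRES-Puro retrovirus, were selected with puromycin and were harvested below confluence, without an osteogenic course. All cells of the line descend from 1 clone, and nothing says that the mock libraries were separate cultures, so their spread may be technical. The other 6 libraries were sorted osteoblasts of mice given PTH (1-34) (3 libraries) and MC3T3-E1 cells overexpressing Slpi (3 libraries).

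Per the labels, the sorted cells went through SMART-Seq v. 4 amplification and the line through a TruSeq stranded mRNA kit (the study's methods name the amplification kit for both), and the 2 tables were normalized separately. Each library was therefore turned into percentile ranks over the 12359 genes (0 the lowest, 100 the highest FPKM), and differences are in percentile points, sorted minus mock, ± SE from limma with 3 libraries a group. A gene was called when its limma adjusted p was under 0.05 and its ranks differed by at least 20 points. A quantile-normalized log2 difference, which forces 1 distribution of log2(FPKM + 1) on all libraries, is given where both ranks lay near the top and ranks could not separate them. An animal against a culture, a female mouse against a line that expresses Y-linked genes, age, sorting, kit and depth all went with the group, and these cannot be told apart in any difference below.

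Osteoblasts secrete type I collagen and the noncollagenous proteins of osteoid, and then mineralize it. Runx2 and Sp7 (osterix) are the transcription factors that commit a cell to this lineage, osteocalcin (Bglap) marks its mature stage, and some osteoblasts become buried as osteocytes, which express Dmp1, Phex, Mepe and sclerostin (Sost). Osteoblasts also receive parathyroid hormone through Pth1r and instruct osteoclasts through RANKL (Tnfsf11) and M-CSF (Csf1).

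The libraries differed in depth and in what other cells they held. Steps in the low FPKM values put the apparent depth at 4670000 to 7770000 reads in the vehicle libraries and 23720000 to 25940000 reads in the mock libraries, so 3 reads on a 2 kb transcript were worth 0.193 to 0.321 FPKM and 0.0578 to 0.0632 FPKM. Spearman's rho across genes, which are not independent replicates, was 0.962 to 0.966 among vehicle, 0.993 to 0.995 among mock and 0.672 to 0.689 between vehicle and mock libraries. Ptprc, which encodes the CD45 that the gate excluded, stood at 56.9, 59.2 and 35.9 FPKM in the vehicle libraries and at 0.007, 0 and 0 FPKM in the mock libraries. All 6 of 6 pan-leukocyte genes were called higher in the sorted cells, with a summed 173 to 281 FPKM against 0.104 to 0.187 FPKM. T cell markers summed to 97.1 to 149 FPKM (4 of 7 called higher), neutrophil markers to 377 to 470 FPKM (9 of 10), erythroid markers to 117 to 163 FPKM (3 of 4) and macrophage markers to 44 to 73.0 FPKM (3 of 7). Markers of gut epithelium, a list added after its genes were seen at the top of the differences, summed to 953 to 1454 FPKM (12 of 12 called higher), against 0.459 to 0.972 FPKM in the mock libraries, as the plot of marker sums shows. B cell markers reached only 4.52 to 5.28 FPKM and had no called member among 3. The endothelial list split, with Pecam1 higher in the sorted cells and Flt1 at 0.0773, 0.229 and 0.0192 FPKM against 17.4, 17.8 and 18.5 FPKM in the line. Xist was at 10.6 to 11.3 FPKM in the sorted cells and at most 0.016 FPKM in the line, and Eif2s3y of the Y chromosome was at 0 in all 3 vehicle libraries and at 24.3 to 26.2 FPKM in the line. The part of these other cells in the results below was not tested, and in a bulk library fewer cells of a type and less RNA per cell cannot be told apart.

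**Figure D1:**
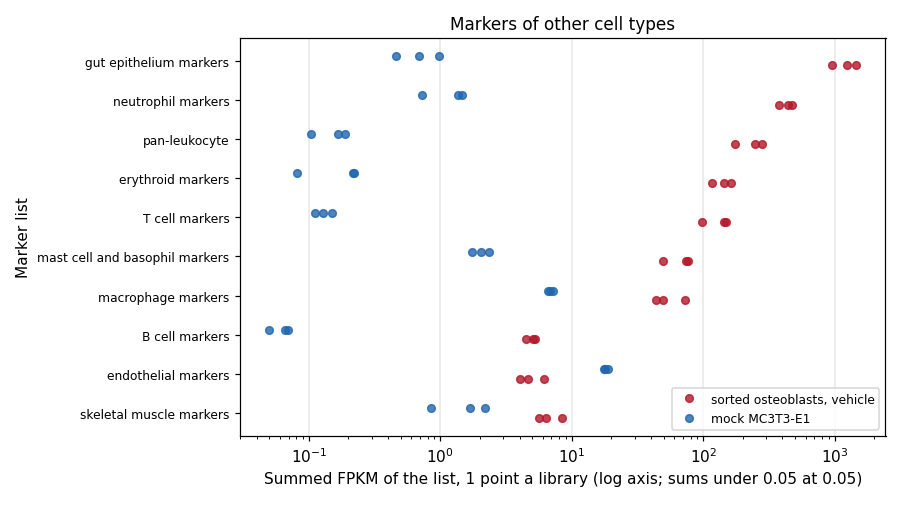
Summed FPKM of marker lists for other cell types (log axis), 1 point a library, for the 3 vehicle libraries of sorted osteoblasts (red) and the 3 mock MC3T3-E1 libraries (blue). The vehicle sums lay above the mock sums for every list drawn except the endothelial one, where Flt1 in the line set the sum.

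Of the 12359 genes, 3209 (26.0%) were called, 1631 (13.2%) higher and 1578 (12.8%) lower in sorted osteoblasts. Counts of list members below are to be read beside these shares. At any size of difference, 9256 genes (74.9%) passed the adjusted p of 0.05, and the ranks of the groups did not overlap for 9968 genes (80.7%), so lack of overlap alone told little. The median absolute difference was 10.9 points and the 90th percentile was 36.4 points. Far fewer genes were called for the treatments within each experiment. PTH against vehicle had 103 genes called higher (0.833%) and 316 lower (2.56%), 419 in all (3.39%), and Slpi against mock had 30 higher (0.243%) and 19 lower (0.154%), 49 in all (0.396%). Their median absolute differences were 4.29 and 2.09 points, and at any size of difference 1758 and 6384 genes passed the adjusted p of 0.05. The median SD of a rank within a group was 2.79 points in vehicle and 0.707 points in mock libraries. On log2(FPKM + 1) without rescaling, the median gene was 0.55 lower in the sorted cells (a difference of -0.55), and at 1 log2 unit the split was 1924 higher against 3944 lower. With log2(FPKM + 0.1) it was 2325 against 4623. After quantile normalization the median was -0.13 and the split 2152 against 2460, closer to the even split by ranks. Genes just inside the limit of 20 points were Cideb (20.003), Creb3l2 (20.008) and Pcdhgb2 (20.011 points), and just outside were Dab2 (-19.983), Ect2 (-19.987) and Jmjd7 (-19.987 points).

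The filter bears on these counts. Of the tested genes, 1829 reached 1 FPKM only in a sorted library and 737 only in the line, and these had to differ to some degree. Of the 1631 genes called higher, 778 were under 1 FPKM in all mock libraries (256 of them at 0) and 821 were at 1 FPKM or more in all 6 libraries. Of the 1578 called lower, 307 were under 1 FPKM in all vehicle libraries (37 of them at 0) and 1079 were at 1 FPKM or more in all 6. Transcripts rich in G and C were called lower more often, from 6.67% in the lowest of 10 GC bins to 20.6% in the highest, while the share called higher was 14.7% and 11.5% in these bins. Ranks taken within GC bins gave 1601 higher and 1505 lower.

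**Figure D2:**
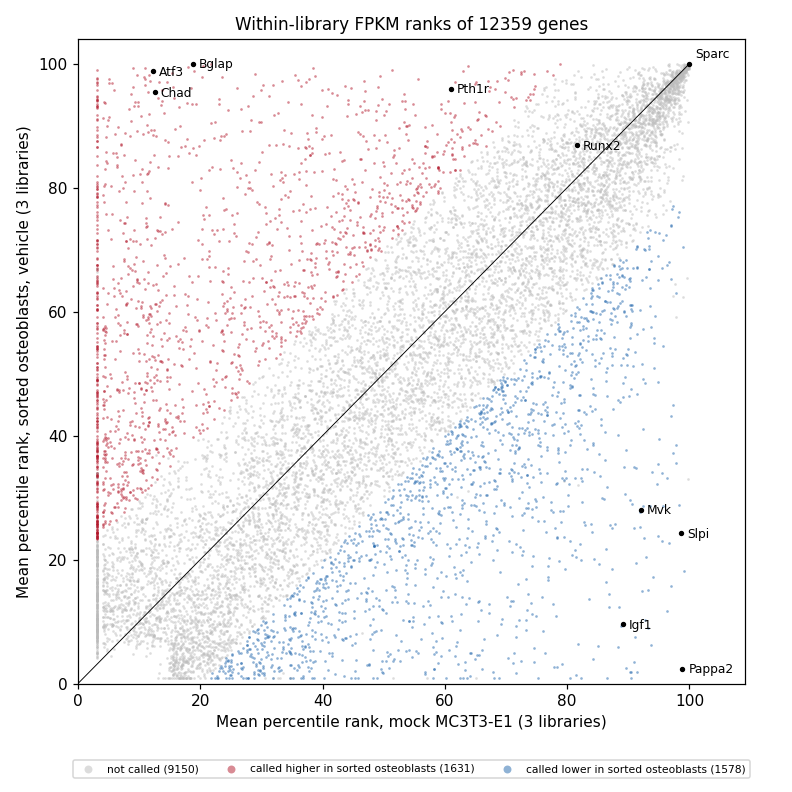
Mean percentile rank of 12359 genes in 3 mock MC3T3-E1 libraries (horizontal) and 3 vehicle libraries of sorted osteoblasts (vertical), with genes called higher in red, called lower in blue and the others in grey. Bglap, Chad and Atf3 lay at the upper left, Pappa2, Igf1, Slpi and Mvk at the lower right, Sparc at the shared top, and genes at 0 in all mock libraries form the column at rank 3.04.

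The factors that define the lineage were present in both. Runx2 was at 29.7, 30.6 and 36.7 FPKM in the vehicle libraries and at 34.5, 34.3 and 34.2 FPKM in the mock libraries, with ranks of 86.8 and 81.6. Sp7 was at 65.8, 59.2 and 70.9 FPKM against 30.9, 29.8 and 29.3 FPKM, and its 14.4 ± 0.452 points fell short of the call (limma adjusted p = 9.77e-07, quantile-normalized log2 difference 1.62). Both genes were among the better expressed transcripts of either cell, Sp7 at ranks of 93.5 and 79.1. Of the 10 tested members of the list, 1 was called higher and 2 lower, with a median of 2.68 points against -1.31 over all genes. On the quantile-normalized log2 scale 4 were called higher and 2 lower, beside 17.4% and 19.9% of all genes.

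The homeobox factors differed most within that list. Dlx3, which acts on late osteoblast genes, was at 14.8, 14.3 and 17.2 FPKM in the sorted cells and at 0.536, 0.497 and 0.543 FPKM in the line, a difference of 59.6 ± 1.61 points (limma adjusted p = 5.46e-07). Alx4, a factor of skull and limb patterning, ran the other way at 2.69, 2.19 and 2.36 FPKM against 29.8, 30.3 and 29.2 FPKM (-52.9 ± 1.56 points, limma adjusted p = 7.86e-07). Msx2, a factor of craniofacial bone, was also lower (-23.1 ± 1.84 points), and Dlx5 (-12.4), Dlx6 (3.83), Msx1 (-4.88) and Atf4 (1.53 points) were not called. Atf4 ranked near the top in both groups and had a quantile-normalized log2 difference of 1.20 ± 0.05.

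Osteocalcin separated the groups by nearly the whole range of ranks. Bglap was at 6963, 7290 and 8826 FPKM in the vehicle libraries and at 1.69, 1.05 and 1.73 FPKM in the mock libraries. It stood at rank 100 in the sorted cells and at 18.8 in the line (81.2 ± 1.5 points, limma adjusted p = 1.43e-07). Its copy Bglap2 differed by 78.2 ± 1.65 points, and as these copies are nearly identical the division of reads between them is uncertain. The proximal Bglap promoter is shown because ACCACA is the core that Runx2 recognizes. The stretch is from RefSeq on GRCm38.p6, chr3:88384558-88384633, minus strand, upstream of the gene start, with the motif in capitals 126 bases before the start.
Bglap: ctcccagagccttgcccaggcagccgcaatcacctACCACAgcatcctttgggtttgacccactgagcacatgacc
In the 250 bases before the start, on either strand, ACCACA was in 3 of 10 matrix genes and 3 of 9 mineralization genes with a promoter entry, against 13.2% of the 9373 tested genes and 15.9% of all 27025 genes with one. A match describes the letters only.

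Other matrix proteins were split between those with a call and those at the ceiling. Chad (chondroadherin), a leucine-rich repeat protein that cells adhere to, was at 89.9, 80.4 and 96.3 FPKM against 0.361, 0.388 and 0.424 FPKM (82.9 ± 1.21 points, limma adjusted p = 1.17e-07). Omd (osteomodulin), a keratan sulphate proteoglycan of bone, was higher by 31.9 ± 0.520 points. Ogn (osteoglycin) was at 19.3, 17.1 and 16.4 FPKM against 312, 356 and 341 FPKM and was the only matrix member called lower (-22.2 ± 0.854 points, limma adjusted p = 2.12e-06). In all, 4 of 14 tested members were called higher and 1 lower, and the median was 2.18 points.

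Ranks could not separate the most abundant matrix genes, since 1625 genes ranked above 80 in both groups. Sparc (osteonectin) was at 16627, 15451 and 19286 FPKM in the sorted cells and 2529, 2588 and 2525 FPKM in the line, only 0.124 points apart, with a quantile-normalized log2 difference of 2.32 ± 0.05. Ibsp (bone sialoprotein), which nucleates mineral, was at 1309, 1153 and 1429 FPKM against 39.9, 37.9 and 42.5 FPKM (15.5 points, log2 difference 5.67 ± 0.06). Decorin (Dcn) and lumican (Lum), which space collagen fibrils, had log2 differences of 3.98 and 3.42. Matrix Gla protein (Mgp), an inhibitor of mineral, was at 41.2, 46.8 and 46.6 FPKM against 1766, 1863 and 1780 FPKM, a log2 difference of -4.62 ± 0.06 behind a rank difference of -9.08. On that log2 scale, 10 of the 14 matrix genes were called higher and 3 lower, beside 17.4% and 19.9% of all genes.

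**Figure D3:**
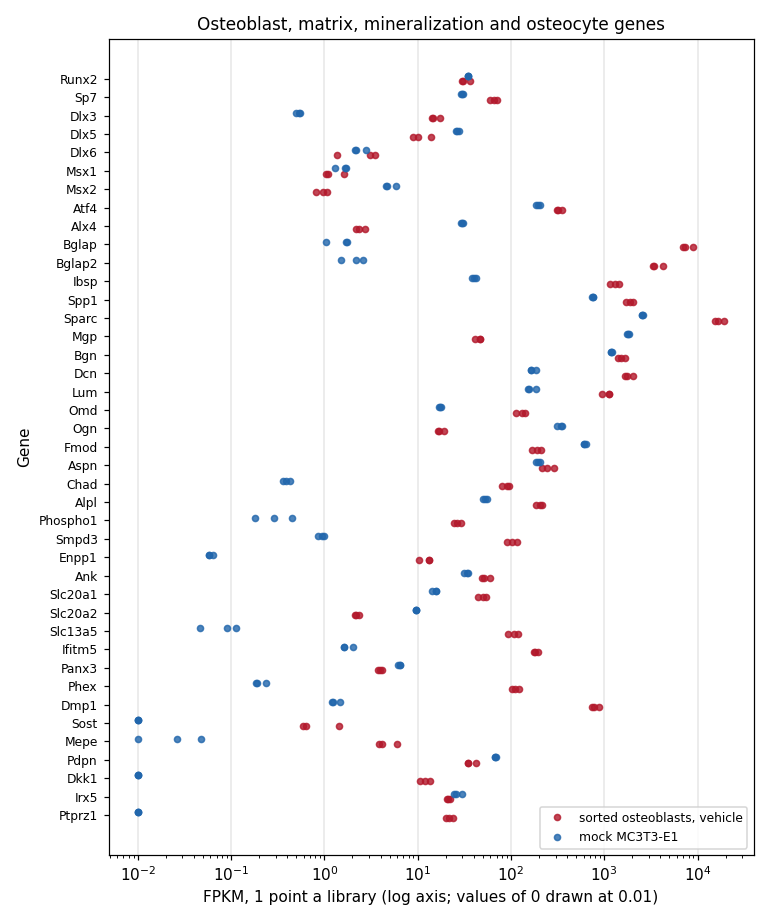
FPKM (log axis) of tested osteoblast transcription factors, noncollagenous matrix, mineralization and osteocyte genes, 1 point a library, for 3 vehicle libraries of sorted osteoblasts (red) and 3 mock MC3T3-E1 libraries (blue), with values of 0 drawn at 0.01. Runx2, Irx5 and Aspn lay close together, Bglap, Dmp1, Phex and Slc13a5 lay far to the right in the sorted cells, and Mgp, Ogn and Alx4 lay to the right in the line.

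The genes that supply and localize phosphate were the bone list with the largest shift. Of 12 tested mineralization genes, 8 were called higher and 1 lower, with a median of 65.4 points. Phospho1 releases phosphate inside matrix vesicles and was at 26.3, 24.7 and 28.8 FPKM against 0.449, 0.288 and 0.180 FPKM (72.3 ± 1.38 points, limma adjusted p = 1.58e-07). Smpd3, the neutral sphingomyelinase that supplies phosphocholine, was higher by 80.7 ± 1.22 points, and the citrate carrier Slc13a5 was at 107, 92.2 and 118 FPKM against 0.091, 0.046 and 0.112 FPKM (87.3 ± 1.28 points). No library of the line reached 1 FPKM for any of these 3 genes. Ifitm5 (BRIL), a membrane protein of osteoblasts, differed by 77.6 ± 1.27 points. Enpp1, which makes the mineral inhibitor pyrophosphate, differed by 58.5 ± 2.17 points, so both sides of the phosphate balance were represented among the higher genes.

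Other members of the pathway were expressed in both groups. On the quantile-normalized log2 scale 10 of the 12 genes were called higher and 1 lower, beside 17.4% and 19.9% of all genes. Alkaline phosphatase (Alpl) was at 205, 185 and 216 FPKM against 54.6, 50.4 and 52.8 FPKM, which was 9.73 points and a log2 difference of 2.43. The sodium-phosphate carriers moved apart, Slc20a1 higher by 29.9 ± 1.08 points and Slc20a2 lower (-23.7 ± 1.16 points). The pyrophosphate transporter Ank (10.9 points, log2 difference 1.19) and Panx3 (-1.72 points) were not called by ranks. Over genes at 1 FPKM or more in all 6 libraries only, the count called higher was 3, because the genes near 0 in the line leave the list.

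Most osteocyte genes were well expressed in the sorted population and at or near 0 in the line. Dmp1, a phosphoprotein of early osteocytes that also counts among the mineralization genes, was at 781, 745 and 874 FPKM against 1.20, 1.23 and 1.48 FPKM (81.5 ± 1.21 points, limma adjusted p = 1.17e-07). Phex, the endopeptidase mutated in X-linked hypophosphataemia and likewise on both lists, was at 110, 102 and 121 FPKM against 0.189, 0.237 and 0.183 FPKM (85.6 ± 1.20 points). Ptprz1 and the Wnt inhibitor Dkk1 were at 0 in all 3 mock libraries and at 20.3 to 24.1 and 10.6 to 13.4 FPKM in the sorted cells (77.8 ± 1.34 and 63.6 ± 1.80 points). Mepe, a phosphoprotein of the mature osteocyte, was lower in level, at 5.94, 4.18 and 3.81 FPKM against 0, 0.048 and 0.026 FPKM (34.6 ± 3.15 points). Sost stood at 0.589, 0.641 and 1.45 FPKM against 0 in the line and was not called (7.21 ± 2.97 points, limma adjusted p = 0.0653). In all, 5 of 8 tested members were called higher (62.5%, beside 13.2% of all genes) and none lower, with a median of 49.1 points. Pdpn (-2.60) and Irx5 (3.82 points) were not called. Over genes at 1 FPKM or more in all 6 libraries only, 1 member was called higher, because the genes near 0 in the line leave the list. Fgf23 did not reach 1 FPKM in any of the 6 libraries, and Ackr3 was not matched in both tables.

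The collagen chains divided by type. Of 31 tested chains, 8 were called higher and 9 lower, and the median was 0.00809 points. Col13a1, a transmembrane collagen, was at 68.6, 55.9 and 70.8 FPKM in the sorted cells and at 0 in all 3 mock libraries (90.4 ± 1.24 points). Col22a1, of tissue junctions, was higher by 87.0 ± 1.20 points, and Col11a2, a fibrillar chain, was at 992, 909 and 1115 FPKM against 2.10, 1.72 and 1.57 FPKM (79.2 ± 1.29 points). The 9 lower chains, named here after their values were seen, were Col4a1, Col4a2, Col4a5, Col4a6, Col7a1, Col8a1, Col8a2, Col18a1 and Col27a1. All 4 type IV chains of the basement membrane among them differed by -48.3 to -68.8 points, with Col4a6 at 0 in the sorted cells. Col5a1 (0.00809) and Col3a1 (0.348 points) held the same place in both.

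The type I chains could not enter the test. Col1a1 was listed at 26217, 24170 and 0 FPKM in the vehicle libraries and at 7561, 7507 and 7237 FPKM in the mock libraries, and Col1a2 at 26655, 24544 and 0 FPKM against 5994, 6064 and 5801 FPKM. Both were also listed at 0 in all 3 PTH libraries, although the cells were sorted by the activity of a type I collagen promoter.

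Of 19 tested enzymes and chaperones that modify collagen, 3 were called higher and 2 lower (median 0.577 points), shares of 15.8% and 10.5% beside 13.2% and 12.8% over all genes. On the quantile-normalized log2 scale 9 were called higher and 4 lower, beside 17.4% and 19.9% of all genes. Loxl2, a lysyl oxidase that crosslinks collagen, was at 139, 126 and 159 FPKM against 0.286, 0.309 and 0.292 FPKM (85.4 ± 1.19 points, limma adjusted p = 1.17e-07). Its relative Loxl4 was higher by 25.7 ± 0.748 points and Loxl1 lower (-31.5 ± 1.45 points). P4ha3, a prolyl hydroxylase subunit, was at 4.72, 2.40 and 4.23 FPKM against 113, 112 and 112 FPKM (-59.3 ± 4.10 points). Ppib, a chaperone of procollagen, differed by 0.0108 points.

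Several genes of the PTH pathway, the receptor among them, ranked higher in the sorted cells. Pth1r was at 98.2, 89.8 and 105 FPKM in the vehicle libraries and at 15.6, 14.8 and 14.6 FPKM in the mock libraries, at ranks of 95.9 and 61.0 (34.9 ± 0.707 points, limma adjusted p = 1.93e-07). Gprc5a, an orphan receptor, was higher by 57.9 ± 1.46 points, Rgs2, which restrains G-protein signalling, by 47.6 ± 1.29 points and the cAMP phosphodiesterase Pde7b by 39.3 ± 1.64 points. Gnas, the stimulatory G protein itself, was at rank 99.0 and 99.1. In all, 7 of 19 tested members were called higher and 3 lower, with a median of 7.31 points. These were 36.8% and 15.8%, beside 13.2% and 12.8% of all genes. The called members named here had the 4 largest differences, and the 3 lower ones were not among them. Among PTH-treated against Slpi-overexpressing cells the difference in Pth1r was 4.39 points and no longer called, and with all shared names ranked it was 19.9 points, just short of a call.

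Of the genes listed for osteoclast control, 5 were called higher and 5 lower among 11 tested (median -11.2 points). Slpi, described below, was on this list and is 1 of the 5 lower. Tnfsf11 (RANKL), which drives osteoclast formation, was at 11.8, 13 and 12.3 FPKM against 0.325, 0.536 and 0.529 FPKM (54.6 ± 1.34 points, limma adjusted p = 3.70e-07). Its decoy receptor Tnfrsf11b (osteoprotegerin), named after its values were seen, was at 25.1, 22.1 and 27.6 FPKM against 7.66, 7.64 and 6.87 FPKM (41.1 ± 1.48 points). Csf1 (M-CSF) stood near the limit at 16.8, 17.3 and 20.9 FPKM against 209, 210 and 214 FPKM (-20.4 ± 1.28 points), and fell outside it without vehicle library 1 (-19.4) or 2 (-19.9). Sema3a, which restrains osteoclasts, was at 0.705, 1.47 and 1.03 FPKM against 44.9, 47.7 and 48.5 FPKM (-74.5 ± 2.40 points), and the ephrin receptor Ephb4 was lower as well (-46.6 ± 1.94 points). Wnt5a (-11.2 points) was not called.

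Slpi, the secreted leukocyte protease inhibitor that the study follows, was scarce in untreated osteoblasts and abundant in the untreated line. It was at 1.64, 2.38 and 2.62 FPKM in the vehicle libraries and at 377, 396 and 386 FPKM in the mock libraries, ranks of 24.2 and 98.6 (-74.3 ± 2.49 points, limma adjusted p = 1.23e-06). In the PTH libraries it was at 37.5, 19.8 and 27.2 FPKM, below every mock library, and in the overexpressing line it was at 2105, 1973 and 1848 FPKM. The levels of the 2 experiments were normalized separately.

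The Wnt list leaned to the sorted cells, with 10 of 25 tested members called higher and 2 lower (median 11.3 points). With only genes at 1 FPKM or more in all 6 libraries, 4 were called higher and 1 lower, because genes near 0 in the line leave the list. Sfrp4, a secreted Frizzled-related inhibitor, was at 15.1, 13.2 and 15.6 FPKM against 0.022, 0.09 and 0.099 FPKM (63.1 ± 1.67 points). Its relative Sfrp2 was at 5.58, 3.99 and 3.19 FPKM against 261, 236 and 251 FPKM (-59.4 ± 3.21 points, limma adjusted p = 9.13e-06). The inhibitors of 1 family therefore stood at opposite ends, while Sfrp1 differed by -1.51 points and the common target Axin2 by 1.29 points. Tcf7, a nuclear partner of beta-catenin that T cells also express, was at 81.8, 78.7 and 64.1 FPKM against 2.57, 2.17 and 2.28 FPKM (71.3 ± 1.3 points). Between the treated libraries the difference in Tcf7 was 7.89 points and not called, at a mean of 46.5 FPKM in the PTH and 36.8 FPKM in the Slpi-overexpressing libraries, so its level differed from the untreated contrast on both sides. T cell markers summed to 0.910 to 19.2 FPKM in the PTH libraries, and their part in Tcf7 was not tested.

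The insulin-like growth factors ran the other way, with 1 of 10 tested members called higher and 6 lower (median -27.2 points). Igf1, a growth factor of bone, was at 1.31, 0.498 and 0.659 FPKM against 55.0, 52.6 and 61.1 FPKM (-79.5 ± 2.63 points, limma adjusted p = 1.17e-06). Igf2 differed by -45.5 ± 1.77 points, and the binding proteins Igfbp2 and Igfbp4 by -48.1 ± 4.36 and -28.6 ± 1.89 points. Pappa2, a protease that cleaves IGF-binding proteins, was the gene with the lowest difference of all by the naming rule, at 0.131, 0.0711 and 0.153 FPKM against 511, 491 and 528 FPKM (-96.4 ± 1.20 points).

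Markers of neighbouring cell fates were not uniform. Of 9 tested chondrocyte markers, 5 were called higher and 2 lower (median 28.6 points), with Acan, the proteoglycan of cartilage, at 16.0, 12.1 and 13.7 FPKM against 0, and Comp, a cartilage matrix protein, at 146, 120 and 131 FPKM against 0.516, 0.568 and 0.449 FPKM. Col2a1, the main cartilage collagen, was at 598, 566 and 676 FPKM in the sorted cells and at 93.2, 84.1 and 93.1 FPKM in the line, 5.87 points apart. With only genes at 1 FPKM or more in all 6 libraries, 1 chondrocyte marker was called higher and 2 lower. Of 15 progenitor and stromal markers, 2 were called higher (Nt5e, 62.4 ± 1.24 points, and Eng, 47.7 ± 1.89 points) and 5 lower. Cd34 was at 1.73, 4.66 and 5.13 FPKM against 55.4, 57.9 and 58.9 FPKM (-54.3 ± 6.25 points), and the BMP antagonist Grem1 was lower too (-44.7 ± 4.28 points). Of 9 adipocyte markers, 3 were called higher and none lower, among them the fatty acid carrier Fabp4 at 3.61, 17.0 and 11.1 FPKM against 0.325, 0.082 and 0 FPKM. No adipocyte marker was called with only genes at 1 FPKM or more in all 6 libraries. Bmp2, an inducer of bone, was at 61.6, 57.8 and 67.6 FPKM against 0 in the line (90.1 ± 1.20 points), and Car3, a carbonic anhydrase, at 582, 572 and 687 FPKM against at most 0.105 FPKM (90.2 ± 1.23 points). These last 2 genes were chosen after their values were seen.

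The proliferation genes favoured the line, but unevenly. Of 44 tested members, 18 were called lower in the sorted cells and 1 higher, with a median of -17.7 points. Aurora kinase A (Aurka), of the mitotic spindle, was at 2.30, 3.28 and 2.34 FPKM against 29.8, 28.8 and 29.7 FPKM (-50.9 ± 2.16 points, limma adjusted p = 3.24e-06). Anillin (Anln), Plk1 and Ube2c, which act in cytokinesis and mitosis, differed by -46.2 ± 2.08, -45.4 ± 2.27 and -44.3 ± 5.48 points. The members closest to 0 were Mcm3, a subunit of the replicative helicase, at 30.3, 32.4 and 19.1 FPKM against 38.8, 41.6 and 40.1 FPKM (-0.573 ± 2.33 points) and cyclin E2 (Ccne2) at -0.862 points. The 1 higher gene was the licensing factor Cdt1 (21.6 ± 0.903 points), named after its values were seen. Against the line overexpressing Slpi, the PTH libraries had 39 of 44 members lower, Mcm3 included (-38.5 points). Marker sums of other cells differed between the PTH and vehicle libraries in both directions. Pan-leukocyte genes summed to 12.5 to 84.2 FPKM with PTH and 173 to 281 FPKM with vehicle. T cell markers were lower too, at 0.910 to 19.2 against 97.1 to 149 FPKM. Neutrophil markers were higher, at 702 to 2362 against 377 to 470 FPKM. The line side differed as well, with Mcm3 at a mean of 64.4 FPKM with Slpi and 40.1 FPKM in mock cells. The part of other cells or of the line in the count of 39 was not tested.

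The inhibitors of the cell cycle did not share 1 direction, with 4 of 12 called higher and 2 lower, or 1 lower without vehicle library 3 (median 11.1 points). Cdkn2a was at 12.2, 16.1 and 9.59 FPKM in the sorted cells and at 0 in all 3 mock libraries (64.5 ± 3.13 points), and Cdkn2b was also at 0 in the line. Cdkn2c stood at 2.44, 3.10 and 2.60 FPKM against 81.6, 77.3 and 79.0 FPKM (-63.9 ± 1.62 points, limma adjusted p = 4.27e-07). Rb1 was higher by 32.9 ± 2.07 points, and Trp53 (-6.91 points) was not called.

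Genes of cholesterol synthesis and uptake had the largest share called lower of the lists described here. Of 22 tested members 18 were called lower and none higher, with a median of -35.2 points, and every member was at 1 FPKM or more in all 6 libraries, so none passed the filter through the line alone. The mevalonate pathway turns acetyl-CoA into isoprenoids and sterols. Mvk, the mevalonate kinase, was at 3.02, 2.19 and 2.82 FPKM against 75.6, 74.8 and 75.5 FPKM, ranks of 28.0 and 92.0 (-64.0 ± 2.03 points, limma adjusted p = 1.01e-06). Mvd, a later step, was at 3.02, 3.45 and 3.01 FPKM against 47.0, 45.4 and 46.2 FPKM (-54.8 ± 1.34 points). Lss, which closes the sterol rings, was at 1.57, 1.65 and 1.74 FPKM against 27.0, 26.0 and 28.0 FPKM (-57.8 ± 1.34 points), and Nsdhl, which removes methyl groups from them, differed by -59.0 ± 3.61 points. In each of these 4 genes every vehicle library lay far below every mock library, though the ranks of the groups also did not overlap for 80.7% of all genes.

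Not every member was lower. Insig1, which retains the sterol sensor in the ER, was at 96.9, 113 and 130 FPKM against 76.2, 77.8 and 80.3 FPKM (4.19 ± 0.320 points). It was not called, and Hmgcs1 (-16.5) and Ebp (-15.6 points), chosen after their values were seen, lay below 0 without a call. The regulator Srebf2, also chosen after, was called lower (-22.8 ± 0.949 points). Outside the main scale, 20 of 22 were called lower after quantile normalization and 16 of 22 in the treated libraries of both experiments, and 11 when all shared names were ranked without the filter.

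Promoters of the 4 genes with the largest differences in that list are shown because they hold CCAAT, the NF-Y element that accompanies sterol elements. They are RefSeq sequence on GRCm38.p6, upstream of the start on the gene's own strand, with each CCAAT or its complement ATTGG in capitals, and the match nearest the start lay 9, 15, 57 and 22 bases before it. Their places are chr5:114444220-114444268 (plus), chrX:72918466-72918520 (plus), chr10:76531508-76531582 (plus) and chr8:122443423-122443484 (minus).
Mvk: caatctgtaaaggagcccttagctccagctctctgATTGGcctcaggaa
Nsdhl: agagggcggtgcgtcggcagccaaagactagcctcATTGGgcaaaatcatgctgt
Lss: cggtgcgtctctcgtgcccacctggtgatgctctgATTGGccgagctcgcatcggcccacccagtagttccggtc
Mvd: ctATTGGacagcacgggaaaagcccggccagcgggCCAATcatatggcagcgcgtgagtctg
Within 250 bases before the start, on either strand, CCAAT was in 15 of 15 cholesterol genes with a promoter entry and in 27 of 36 cell cycle genes. It was in 7 of 19 immediate early genes, 40.3% of the 9373 tested genes and 37.5% of all 27025 genes with an entry. The sterol regulatory element with 1 free base was in 0 of 15 of them and in 0.226% of all genes. The 10 motifs searched were chosen after the expression values were seen. Beside CCAAT, they were the cAMP and Runx2 cores shown with their genes, the Runx2 core with 1 more A in front, the core TTTGAA of Tcf factors, the full palindrome of the cAMP response element, the sterol regulatory element with and without the free base, the heat shock element and the CArG box, and a lack of match says only that those letters were not in this window.

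**Figure D4:**
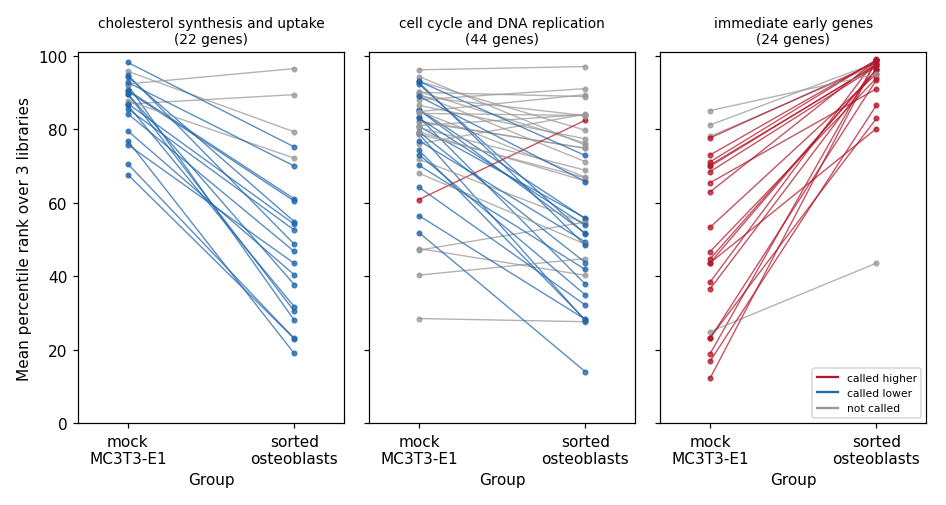
Mean percentile rank over 3 libraries in mock MC3T3-E1 (left of each panel) and in sorted osteoblasts of vehicle-treated mice (right), 1 line a gene, for cholesterol synthesis and uptake (22 genes), cell cycle and DNA replication (44 genes) and immediate early genes (24 genes). Blue lines are genes called lower (18, 18 and 0), red lines genes called higher (0, 1 and 20), and grey lines the others.

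Immediate early genes, which cells switch on within minutes of a stimulus without new protein, had the largest share called higher of the lists outside blood and gut markers. Of 24 tested members 20 were called higher (83.3%, beside 13.2% of all genes) and none lower, with a median of 36.2 points. The ranks of the groups did not overlap for any of them, which also held for 80.7% of all genes. Atf3 was at 360, 339 and 449 FPKM in the sorted cells and at 0.314, 0.258 and 0.498 FPKM in the line (86.6 ± 1.25 points, limma adjusted p = 1.17e-07). Fosb, a partner of Jun in AP-1, was at 395, 350 and 423 FPKM against 1.55, 1.42 and 1.51 FPKM (79.9 ± 1.15 points). The small Maf factor Maff and the zinc-finger factor Egr3 followed, with 70.4 ± 1.39 and 69.7 ± 1.53 points. Junb (17.0) and Myc (9.97 points) already ranked above 80 in the line and were not called, but had log2 differences of 3.20 and 1.49 after quantile normalization. In the treated libraries 20 of the 24 were called as well, and 13 when all shared names were ranked. The sorted cells had gone through digestion and sorting, and the line was lysed in its dish, and the part of that handling was not tested.

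The promoters of Fosb and Maff are shown because they hold the core of the cAMP response element, TGACG or the full TGACGTCA, in capitals, 55 and 21 bases before the start. They are RefSeq sequence on GRCm38.p6, chr7:19310066-19310140 (minus) and chr15:79347456-79347519 (plus).
Fosb: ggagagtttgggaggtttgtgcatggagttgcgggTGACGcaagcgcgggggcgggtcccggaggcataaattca
Maff: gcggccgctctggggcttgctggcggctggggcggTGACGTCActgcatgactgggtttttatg
In the same window TGACG was in 12 of 19 immediate early genes with an entry, 30.0% of tested genes and 19.8% of all genes. The full TGACGTCA, which contains it, was in 3 of 19, 3.08% and 1.77%.

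All 12 tested heat shock genes lay above 0, with 3 called higher and none lower (median 10.5 points). Hspa1a was at 114, 122 and 154 FPKM against 0.616, 0.784 and 0.901 FPKM (82.4 ± 1.24 points), its near-identical copy Hspa1b differed by 59.6 ± 1.3 points, with reads that the counting may share between them, and their partner Dnajb1 by 35.4 ± 0.636 points. The members closest to 0 were Hsp90ab1 (0.316) and Hspe1 (0.345 points). On the quantile-normalized log2 scale 9 of the 12 were called higher, beside 17.4% of all genes.

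YAP targets, which respond to spread and stretched cell shape, had 1 of 10 called higher and 4 lower (median -12.4 points). Ctgf was at 248, 211 and 227 FPKM against 5.81, 5.06 and 5.56 FPKM (62.8 ± 1.11 points). Ankrd1 ran the other way at 0.1, 0 and 0.225 FPKM against 16.1, 16.6 and 16.0 FPKM (-61.2 ± 1.21 points), as did the receptor kinase Axl (-42.6 ± 1.82 points) and tissue factor F3 (-37.7 ± 2.80 points). Cyr61, a close relative of Ctgf, was high in both, at ranks of 99.0 and 96.7. Among actin and contractile genes 1 of 17 was called in each direction by ranks (Cnn1 higher, Actn1 lower). Of the 17, 15 lay below 0, with a median of -4.52 points. On the quantile-normalized log2 scale 1 was called higher and 12 lower, beside 17.4% and 19.9% of all genes. The number called therefore depended on the scale.

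Few members of the housekeeping lists were called by ranks. Of 80 ribosomal protein genes 1 was called higher and 2 lower (median -0.193 points), with 1 lower when vehicle library 2 or any mock library was left out. Of 76 respiratory chain genes none was called higher and 2 lower, or 1 lower without vehicle library 3 (median -1.38 points). These counts depended on the scale. On log2(FPKM + 1), 48 ribosomal and 34 respiratory chain genes were called lower, beside 3944 of all 12359 genes. After quantile normalization 8 and 13 were called lower, beside 19.9% of all genes. The lower ones included Rpl26, at 0 in all 3 vehicle libraries and at 33.3, 46.7 and 23.8 FPKM in the line, and Ndufs5, at most 0.0265 FPKM against 51.8 to 73.0 FPKM. Both have near-identical copies or overlapping annotation with which the counting could share reads, so both are uncertain. Of 19 glycolysis genes 2 were called higher, the hexokinase Hk2 (45.5 ± 0.942 points) and Pfkfb3 (48.0 ± 1.12 points), while Aldoa and Ldha differed by -0.0944 and -0.348 points. The ER chaperone genes were likewise close by ranks, at medians of 96.4 and 95.0, with 1 of 15 called higher, Dnajb9 (59.9 ± 1.75 points). After quantile normalization 5 of these 15 were called higher and 1 lower, and 4 and 5 of the 19 glycolysis genes. The shares over all genes on that scale were 17.4% and 19.9%.

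**Figure D5:**
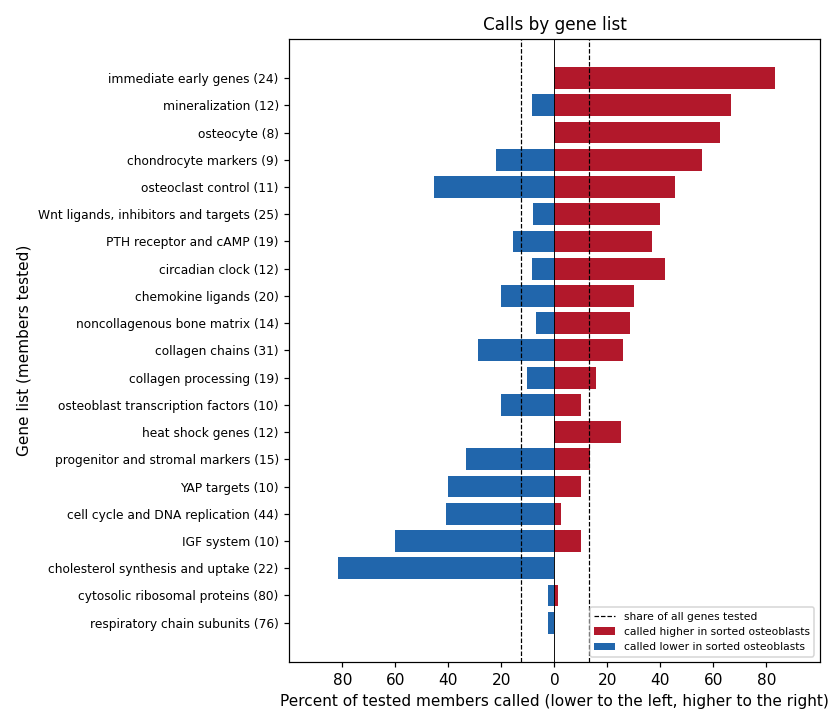
Percent of each list's tested members called higher (red, to the right) or lower (blue, to the left) in sorted osteoblasts, with the shares over all genes tested, 13.2% and 12.8%, as dashed lines. Immediate early genes and mineralization genes reached furthest to the right, cholesterol genes and the IGF system furthest to the left, and ribosomal and respiratory chain genes stayed near 0.

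The rule for the largest differences named mainly transcripts at or near 0 on 1 side. Among the 10 highest were Zg16 (390, 565 and 488 FPKM) and Tff3 of the gut, Sycn of exocrine granules, S100a9 of neutrophils, Hba-a1 of red cells, and Cd3g and Cd7 of T cells, each at 0 in at least 2 mock libraries. The acute phase gene Saa1 (87.1, 173 and 116 FPKM), the protease inhibitor Tfpi2 (123, 119 and 132 FPKM) and the amino acid carrier Slc36a2 (88.6, 91.4 and 102 FPKM) completed them. Tfpi2 and Slc36a2 varied little between vehicle libraries, and the gut and T cell transcripts varied more. In the PTH libraries Zg16 was at 301, 607 and 0 FPKM and Cd3g at 7.89, 10.7 and 0 FPKM, and neither gene was called there. Among the 10 lowest, besides Pappa2 and Ndufs5, were the complement protease Masp1 (68.5 to 72.0 FPKM in the line), the prostaglandin receptor Ptgfr, the glutamate carrier Slc1a3, and the matrix proteins Adamtsl3, Sned1 and Emilin2, all at 1.42 FPKM or less in the vehicle libraries.

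The contrast was taken again with the other 6 libraries, PTH-treated osteoblasts against Slpi-overexpressing cells, which share no sample with it. It again set sorted mouse cells against the same line, with the same differences in sex, kit, sorting and depth. The genes were those kept by the untreated libraries. Agreement between the 2 contrasts therefore cannot separate these differences from one another. In the treated contrast 1451 genes (11.7%) were called higher and 1393 (11.3%) lower. Of the 1631 genes higher in the untreated contrast, 1082 were called higher there, 2 were called lower and 1585 had the same sign. Of the 1578 lower, 893 were called lower, 0 were called higher and 1554 had the same sign. The mineralization, matrix and osteocyte genes Bglap, Dmp1, Phex, Chad and Slc13a5 stayed higher, with 74.2, 83.3, 84.7, 83.9 and 76.2 points. Ifitm5 and Smpd3 were still called higher, but their differences were 20.1 and 28.8 points in place of 77.6 and 80.7 points, and that of Phospho1 was 41.3 in place of 72.3 points. Ifitm5 averaged 216 FPKM in the PTH and 183 FPKM in the vehicle libraries, and 29.6 FPKM in the Slpi-overexpressing and 1.76 FPKM in the mock libraries. Omd (19.4), Mepe (19.6), Ogn (-15.8) and Msx2 (3.56 points) lost the call, and Slpi narrowed to -16.2 points.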

How the data were processed

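RNA-Seq was performed by the authors on 3 vehicle and 3 PTH libraries of sorted osteoblasts and on 3 mock and 3 Slpi libraries of MC3T3-E1 cells. The authors deposited FPKM values per gene name, 1 file a library. Per the submitters' processing notes and the study's methods, reads were mapped to mm10 with TopHat2 2.0.13, Bowtie2 2.2.3 and SAMtools 0.1.19, and FPKM was calculated with Cuffnorm (Cufflinks 2.2.1), which scales the libraries of a run together. The sums of FPKM were 400839 to 431278 in vehicle and 541932 to 546286 in mock libraries, and the 10 highest genes held 16.6 to 23.8% and 8.78 to 8.90% of them.

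Names were joined exactly: 23284 in the sorted table, 24346 in the line's, 21733 in both, with 1269 further pairs joinable by RefSeq synonym. Values are not counts, so no count test was run. FPKM was ranked within each library (ties averaged, so that genes at 0 ranked at 0.868 in vehicle and about 3.04 in mock libraries), scaled to 0 to 100 and compared with limma 3.58.1 in R 4.3.3 (empirical Bayes with a trend, 2-sided), with Benjamini-Hochberg adjustment over 12359 genes. The script was tested on simulated data. A single value in 3 against 3 libraries cannot go below an exact permutation p of 0.1. The apparent depth was read from the spacing of low FPKM values times transcript length and is an estimate after Cuffnorm's scaling. Exact zeros may be failed estimates: 31 genes were at 0 in 1 library and above 100 FPKM in another of the same group, 29 of them among the tested. Alternatives changed the scale, the filter, the bins of length and GC, the variance trend, a replicate block, each library left out and the treated libraries in place of the untreated.

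Genes were named by a rule: every member of the 4 bone lists, up to 4 called and 2 least changed members of each other list, the 10 largest differences in each direction, and Slpi, Ptprc and Xist. The members and lists were chosen with earlier results of these data known, and the gut list was added after the values were seen. Promoter sequences came from RefSeq on GRCm38.p6, 250 bases before the start, for 27025 genes, and Bglap2 and Egr3 were not matched. Some genes covered by the rule are not reported here.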

Additional observations from a re-analysis of the deposited data

How the results depend on the processing

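The count of genes higher in sorted osteoblasts stayed within 1.5 times of 1631 under every alternative (1253 to 2325). The count of genes lower was 1578, and it became 3944 on log2(FPKM + 1), 4623 on log2(FPKM + 0.1) and 2460 after quantile normalization, and otherwise lay between 1157 and 1666. The call limit on these scales is 1 log2 unit, and the median gene lies at -0.55 on the first and -0.13 on the last. Leaving out each library in turn gave 1627 to 1648 genes higher and 1569 to 1593 lower. Replicate numbers did not pair the libraries (correlations of deviations 0.0202, -0.0146 and 0.0365), and with the replicate block 1638 genes were higher and 1583 lower, of which 1631 and 1576 were the genes called without it. Joining older names by synonym, an alternative chosen after the data were seen, gave 1710 and 1666. Ranking all shared names without the filter compresses the upper ranks by construction, and 24 of 262 named genes lost their call, among them Pth1r (19.9), Omd (18.1), Ogn (-12.6), Slc20a1 (17.0), Slc20a2 (-13.5), Msx2 (-13.3), Csf1 (-11.6), Loxl1 (-17.9), Loxl4 (14.6) and Igfbp4 (-16.2 points). Cell cycle genes called lower ranged from 8 (no filter) to 39 (treated libraries), cholesterol genes lower from 11 to 20, immediate early genes higher from 13 to 24 and Hox genes higher from 0 to 10. In the treated libraries 28 of 262 named genes changed sign, 25 of them called in neither contrast, among them Gp1bb (from -7.05 to 19.2 points), Cebpa (-3.63 to 11.9) and Csf1r (-1.01 to 12.4). With a call in 1 contrast, directions reversed for Axin2 (-29.5 points), Per2 (30.0) and Msx2 (3.56) there, and for Csf1r (1.60) and Mrc1 (1.64) on log2(FPKM + 0.1), and the cause was not tested. Low values are limited by depth: 3 reads on a 2 kb transcript were up to 0.321 FPKM in vehicle libraries, so a gene at 0 there may be expressed below that level.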

Other observations

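Core clock genes leaned to the sorted cells, with 5 of 12 tested members called higher and 1 lower (median 7.86 points). Nr1d1 (Rev-erb alpha), a repressor in the clock's second loop, was at 59.7, 55.0 and 74.2 FPKM in the vehicle and at 9.09, 8.34 and 9.08 FPKM in the mock libraries (47.1 ± 1.12 points, limma adjusted p = 3.44e-07). Its relative Nr1d2 was higher by 41.0 ± 1.26 points, the activator Arntl by 38.7 ± 1.79 points and the repressor Cry1 by 37.7 ± 2.18 points. Per2 (-2.74) and Dbp (1.55 points) were not called, and in the treated libraries 8 members were called higher, Per2 among them (30.0 points).

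Single chemokine and position genes also differed between the cells. Cxcl1, a neutrophil attractant, was at 31.7, 24.1 and 24.6 FPKM against 0, 0 and 0.052 FPKM (79.3 ± 2.11 points), and Ccl6 was higher by 52.1 ± 4.11 points. Cx3cl1 was at 1.65, 1.35 and 2.27 FPKM against 39.3, 42.0 and 39.9 FPKM (-64.4 ± 2.69 points), and Ccl7 was lower by the same test (-56.3 ± 7.13 points). Of 20 tested chemokine genes, 6 were called higher and 4 lower (median 0.142 points). With only genes at 1 FPKM or more in all 6 libraries, 1 chemokine gene was called higher and 2 lower. Of 14 tested Hox genes, which mark position along the body axis, 5 were called higher (35.7%, beside 13.2% of all genes) and none lower. Over genes at 1 FPKM or more in all 6 libraries only, the count higher was 0. After quantile normalization 5 were higher and 3 lower, beside 17.4% and 19.9% of all genes. Hoxb13 and Hoxd13 lost the call in the treated libraries. Hoxb13 was at 7.93, 15.1 and 9.41 FPKM, Hoxb2 at 2.42, 4.47 and 4.61 FPKM and Hoxd13 at 2.96, 4.46 and 3.55 FPKM, and all 3 genes were at 0 in the line. The line came from calvaria, while the sorted cells were pooled from calvaria, limbs and hips, and gut epithelium markers were in the same libraries, and the part of either was not tested.

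Imprinted growth genes had 2 of 14 called higher (1 without vehicle library 1) and 4 lower (median -5.65 points), with Mest at 4.52, 7.2 and 4.67 FPKM against 209, 212 and 205 FPKM (-52.4 ± 3.19 points), Dio3 lower (-53.6 ± 1.98 points) and Peg10 higher (56.0 ± 2.44 points). Class II antigen genes had 4 of 6 called higher and 1 lower (0 without vehicle library 2), among them H2-Aa at 7.99, 10.4 and 7.6 FPKM against 0.041, 0.123 and 0 FPKM, beside the leukocyte markers described above. Class I and interferon genes had 2 of 19 called higher and 4 lower, with Nlrc5 higher (35.9 ± 2.19 points) and Ifi44 lower (-35.1 ± 3.39 points). The count lower was 2 without vehicle library 2, 1 without vehicle library 3 and 2 without mock library 2. Genes of the ATF4 amino acid response had 1 of 13 called higher, Chac1 (29.5 ± 5.17 points). Atf4 itself ranked at 98.7 and 97.2, with a log2 difference of 1.20 after quantile normalization. On that scale 3 members were called higher and 1 lower, beside 17.4% and 19.9% of all genes.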
